A study of Homo sapiens with 4 samples.

Results

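Chromosome 22 held 2448 of the 67191 H2AK119ub peaks deposited for H1 human embryonic stem cells, with 1267 of 32798 peaks in the wild-type list and 1181 of 34393 in the YTHDF1 knockdown list. H2AK119ub is histone H2A carrying a single ubiquitin on a lysine of its tail, mapped here by chromatin immunoprecipitation and sequencing. The chromosome was chosen because its knockdown to wild-type ratio of covered length, the number of bases inside peaks, was the lowest of all chromosomes. That ratio and all values that follow from it are therefore given as a description, with no test. The ratio was 0.730 on chromosome 22, and the next lowest was 0.772 on chromosome X.

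H1 is an established cell line, and all cells were grown in mTeSR1 medium. The wild-type cells were untreated, and the knockdown cells received a short hairpin RNA against YTHDF1. Each group had 1 H2AK119ub library and 1 input library, and the inputs were not analysed here. With 1 library per group no difference could be set against a replicate spread. No read counts were part of the lists, so their depth is unknown, and a peak in 1 list alone can be a region just below the calling threshold in the other library. Peak lists show neither the loss of YTHDF1 nor the identity of the cells, so neither was checked.

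H2AK119ub is deposited by Polycomb repressive complex 1 (PRC1) through its ubiquitin ligases RING1 and RNF2. In embryonic stem cells it is concentrated at CpG islands of silent developmental genes, with a broader low level elsewhere. PRC1 contains either a chromodomain protein such as CBX6 or CBX7, both encoded on chromosome 22, or variant subunits, and L3MBTL2, also on this chromosome, belongs to a variant complex. YTHDF1 is a cytoplasmic reader of N6-methyladenosine in messenger RNA.

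The sequences just upstream of 7 start sites show what lay under peaks of both lists, of the wild-type list alone and of the knockdown list alone. They are RefSeq sequences of GRCh38.p14, whose coordinates are those of hg38, written 5′ to 3′ on the gene's strand and ending at the base before the start site, with each CG dinucleotide in capitals. These genes were chosen after their values were seen. TBX1, a transcription factor of the pharyngeal arches (chr22:19756453-19756702, plus strand), had 17 CG and lay in a wild-type peak of 50.4 kb and a knockdown peak of 25.8 kb. CBX7, the PRC1 chromodomain subunit (chr22:39152681-39152930, minus strand), had 41 CG and lay in peaks of 13 and 11 kb.
TBX1: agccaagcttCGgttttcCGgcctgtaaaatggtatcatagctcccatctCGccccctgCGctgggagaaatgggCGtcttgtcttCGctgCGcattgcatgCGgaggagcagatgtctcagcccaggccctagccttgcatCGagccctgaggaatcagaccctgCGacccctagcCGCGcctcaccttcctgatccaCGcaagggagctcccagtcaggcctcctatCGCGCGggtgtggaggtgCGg
CBX7: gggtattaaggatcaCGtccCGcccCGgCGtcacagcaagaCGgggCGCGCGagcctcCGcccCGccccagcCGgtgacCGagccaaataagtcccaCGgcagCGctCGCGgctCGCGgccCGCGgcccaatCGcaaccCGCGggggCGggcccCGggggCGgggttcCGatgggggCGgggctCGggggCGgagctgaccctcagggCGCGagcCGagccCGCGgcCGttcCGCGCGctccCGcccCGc

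The start sites shown for the next 3 genes lay in a wild-type peak alone. PRAME, a cancer and testis antigen (chr22:22559266-22559515, minus strand), had 9 CG and a wild-type peak of 11.6 kb. Of its other listed start sites, that at 22554182 also lay in a wild-type peak alone and that at 22557632 in neither list. APOBEC3H, an antiviral cytidine deaminase (chr22:39096994-39097243, plus strand), had 1 CG and a wild-type peak of 16.2 kb. AP1B1, an adaptor subunit of clathrin-coated vesicles (chr22:29388571-29388820, minus strand), had 20 CG and a wild-type peak of 4.2 kb.
PRAME: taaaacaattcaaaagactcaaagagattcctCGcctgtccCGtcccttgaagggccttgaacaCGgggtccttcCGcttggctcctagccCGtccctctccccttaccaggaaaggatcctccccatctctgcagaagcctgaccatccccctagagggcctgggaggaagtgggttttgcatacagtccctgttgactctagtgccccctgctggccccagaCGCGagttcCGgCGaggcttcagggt
APOBEC3H: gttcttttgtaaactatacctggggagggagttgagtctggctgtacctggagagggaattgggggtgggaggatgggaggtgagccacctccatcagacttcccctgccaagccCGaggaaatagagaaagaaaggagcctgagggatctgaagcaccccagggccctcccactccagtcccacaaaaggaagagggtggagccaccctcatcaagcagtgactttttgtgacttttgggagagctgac
AP1B1: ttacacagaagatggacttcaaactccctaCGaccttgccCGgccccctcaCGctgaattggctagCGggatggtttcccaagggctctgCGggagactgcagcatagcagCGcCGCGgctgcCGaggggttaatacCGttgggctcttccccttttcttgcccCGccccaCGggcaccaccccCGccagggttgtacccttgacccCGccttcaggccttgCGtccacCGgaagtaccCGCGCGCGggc

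The remaining pair lay in a knockdown peak alone. TOMM22, a receptor of the mitochondrial outer membrane import complex (chr22:38681707-38681956, plus strand), had 24 CG and a knockdown peak of 2.8 kb. PISD, which makes phosphatidylethanolamine (chr22:31662565-31662814, minus strand), had 9 CG and a knockdown peak of 3 kb.
TOMM22: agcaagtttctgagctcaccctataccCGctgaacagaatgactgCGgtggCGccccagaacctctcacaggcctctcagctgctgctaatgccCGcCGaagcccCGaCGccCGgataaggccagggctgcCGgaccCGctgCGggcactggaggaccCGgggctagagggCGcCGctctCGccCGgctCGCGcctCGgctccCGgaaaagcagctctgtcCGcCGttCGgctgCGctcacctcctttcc
PISD: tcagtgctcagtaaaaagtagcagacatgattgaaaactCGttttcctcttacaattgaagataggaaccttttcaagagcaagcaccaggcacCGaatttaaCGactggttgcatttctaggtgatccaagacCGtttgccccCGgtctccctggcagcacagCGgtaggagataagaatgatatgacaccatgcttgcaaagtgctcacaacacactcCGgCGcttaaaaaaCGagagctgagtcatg

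RefSeq microRNA genes show the same 3 outcomes. Of the 46 on chromosome 22, 23 touched a wild-type peak and 16 a knockdown peak, with 15 touched in both. The 8 touched in the wild type alone (over all genes of any kind, 4.39% were) were MIR185, MIR3618, MIR649, MIR5571, MIR3928, MIR6820, MIR4534 and MIR3619. The only one touched in the knockdown alone (4.07% over all genes) was MIR548J. The mature RNAs printed here have their seed (bases 2 to 8) in capitals. The microRNAs let-7a and let-7b, regulators of differentiation timing, share a seed and lay together in a wild-type peak of 28.4 kb and a knockdown peak of 16 kb. MiR-130b and miR-301b share another seed and lay in a wild-type peak of 39.2 kb and a knockdown peak of 6.6 kb. That wild-type peak also met a knockdown peak of 27.8 kb, of which 23.8 kb lay within it. MIR185, in the 22q11.2 region, lay in a wild-type peak of 8 kb, and MIR548J in a knockdown peak of 1.6 kb.
let-7a-5p: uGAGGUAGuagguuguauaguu
let-7b-5p: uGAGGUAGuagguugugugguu
miR-130b-3p: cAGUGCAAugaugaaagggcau
miR-301b-3p: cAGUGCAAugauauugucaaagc
miR-185-5p: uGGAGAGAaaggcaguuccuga
miR-548j-5p: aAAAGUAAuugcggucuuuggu

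Across the chromosome, wild-type peaks covered 8.64 Mb and knockdown peaks 6.31 Mb, a difference of -27.0%. On chromosomes 1 to 21 and X together the ratio was 0.869, and single chromosomes ran from 0.772 (X) to 0.950 (18). The number of peaks differed by -6.79%, and by 5.35% on the other chromosomes. Mean widths were 6.82 kb in wild-type and 5.34 kb in knockdown peaks. With peaks under 2 kb apart merged, the lists held 905 and 903 peaks, so the lower number of knockdown peaks was not found after merging.

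The 2 lists had 4.90 Mb in common on chromosome 22, which was 56.8% of the wild-type and 77.7% of the knockdown cover. Their Jaccard index, the common bases over the bases in either list, was 0.488, close to the 0.489 of the other chromosomes together. A total of 824 wild-type peaks (65.0%) and 963 knockdown peaks (81.5%) had at least 1 bp in a peak of the other list. The remaining 443 wild-type peaks made 34.96% (28.6% over all chromosomes), and the remaining 218 knockdown peaks 18.5% (25.9%). When each peak had to share at least 50% of its bases with its partner, the shared part was 38.4% of the wild-type list and 41.2% of the knockdown list. Most chromosome 22 peaks of either list thus had no counterpart under that stricter rule, for which no share over all chromosomes was computed.

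The bases present in the wild type alone came from both kinds of peak. Of these, 1.96 Mb lay in wild-type peaks that still touched a knockdown peak and 1.77 Mb in peaks that touched none. In the knockdown alone there were 0.756 and 0.649 Mb. A set of 173 wild-type peaks (13.7%, against 10.6% over all chromosomes) touched several knockdown peaks, and 98 knockdown peaks (8.30%, against 6.31%) touched several wild-type peaks.

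**Figure D1:**
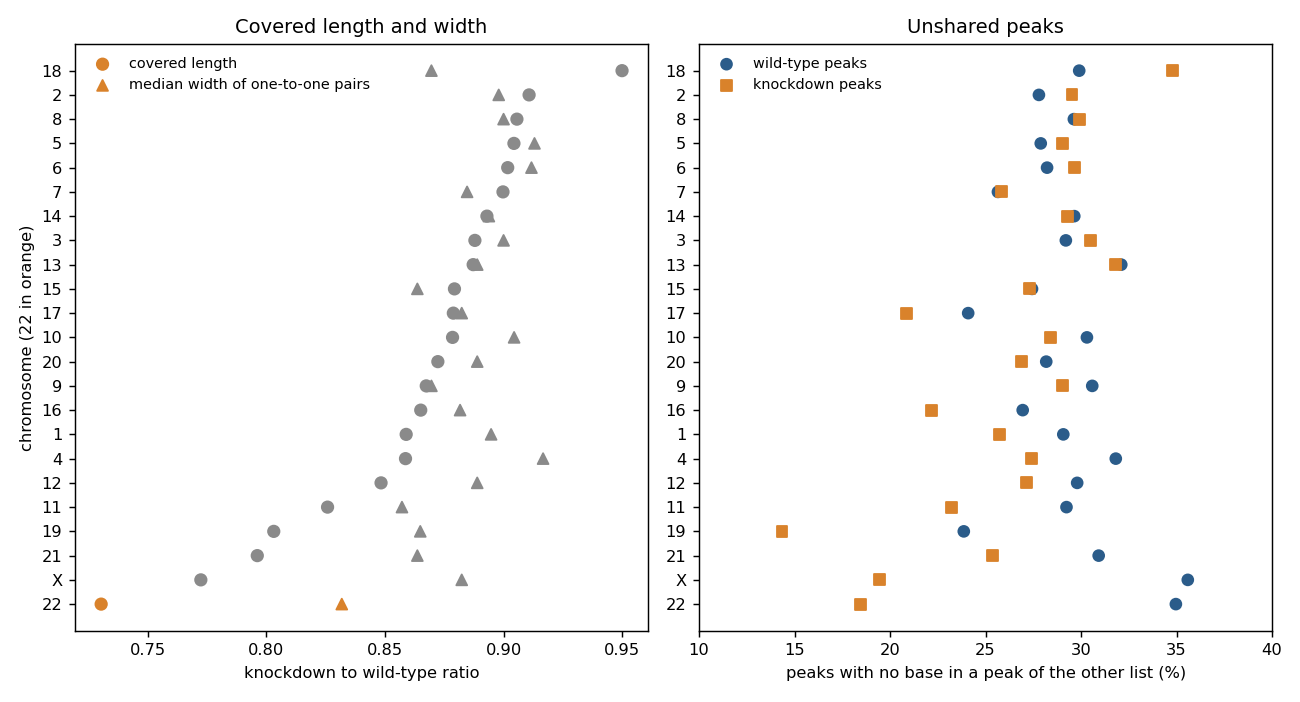
Each row is a chromosome, ordered by its ratio of covered length. Left, knockdown to wild-type ratio of covered length (circles) and median width ratio of peaks that met a single partner in the other list (triangles), with chromosome 22 in orange at 0.730 and 0.832. Right, percentage of wild-type (circles) and knockdown (squares) peaks with no base in a peak of the other list, 34.96% and 18.5% on chromosome 22.

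Widths differed along the whole distribution. The median was 4.6 kb in wild-type and 3.8 kb in knockdown peaks, the upper quartiles were 7.4 and 6 kb, and the widest peaks were 128.6 and 59 kb. There were 55 and 30 peaks of 20 kb or more, covering 1.96 and 0.834 Mb. Peaks under 2 kb numbered 50 and 108. Over all chromosomes the medians were 4.4 and 3.6 kb, with 927 and 603 peaks of 20 kb or more and 1633 and 3329 under 2 kb. The lower median and the larger number of narrow peaks were thus not particular to chromosome 22. On chromosome 22, 520 wild-type peaks had a single touching knockdown peak that touched no other wild-type peak. The knockdown peak was narrower than its partner in 337 (64.8%, against 59.8% over all chromosomes), wider in 161 (31.0%, against 35.7%) and as wide in 22. The median width ratio of these pairs was 0.832, below that of every other chromosome, which ranged from 0.857 (chromosome 11) to 0.917 (chromosome 4).

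The narrow wild-type peaks of chromosome 22 had the least knockdown cover. Of bases in wild-type peaks under 5 kb, 32.6% lay in a knockdown peak, against 44.6% on the other chromosomes. The share was 51.3% against 59.3% for peaks of 5 to 10 kb, 65.6% against 73.7% for 10 to 20 kb and 82.2% against 86.8% for 20 kb or more. In each width class the share was lower on chromosome 22. Of the 674 peaks under 5 kb, 341 (50.6%) touched no knockdown peak, compared with 40.2% elsewhere.

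The authors' score per peak, which has no stated unit, had a median of 17.9 over wild-type peaks and 16.3 over knockdown peaks of the chromosome. These medians rank peaks within their own list only. Scores at the ceiling of 1000 belonged to 39 wild-type and 21 knockdown peaks. Within the wild-type list, peaks that touched a knockdown peak had a median score of 27.6 and those that touched none 11.1. In the knockdown list these medians were 20.2 and 8.29.

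Seen by 1 Mb band, the difference ran along most of the long arm. All 32 bands with at least 20 kb in wild-type peaks had less in knockdown peaks (over all chromosomes 74.7% of such bands did), and 16 of them (50%, against 22.5%) had a ratio below 0.75. The median band ratio was 0.752, compared with 0.877 on the other chromosomes. The ratios ran from 0.269 to 0.953. The bands below that cover were 11 to 12 Mb, with 3 kb in wild-type peaks alone, and 47 to 48 Mb, with 5.8 and 11.6 kb, the only band with more in the knockdown. Chromosome 19, with a similar median wild-type cover per band (285.8 kb, against 248.9 kb on chromosome 22), came close. There 52 of 53 bands with at least 20 kb were lower, 35.8% had a ratio below 0.75 and the median band ratio was 0.800. Over all chromosomes but 22 the median wild-type cover per band was 65.6 kb.

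The largest decrease lay at 22 to 23 Mb, the band of the immunoglobulin lambda genes, with 698 kb in wild-type and 401.2 kb in knockdown peaks. The next band, 23 to 24 Mb, which holds GNAZ and BCR, had 394 and 232.6 kb. Together these bands made 19.7% of the chromosome's decrease and 12.6% of its wild-type cover. The band at 37 to 38 Mb, from CIMIP4 to SOX10, had 646.2 and 489 kb. The band at 48 to 49 Mb, whose only protein-coding gene is TAFA5, had 187.4 kb in 43 peaks and 50.4 kb in 13 peaks, the lowest ratio of the chromosome (0.269). The band from PHF21B to WNT7B, 45 to 46 Mb, had 378.2 and 249.6 kb.

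The bands were also grouped into longer stretches, drawn after the values were seen. From 32 to 36 Mb, over SYN3 and MCM5, cover was 364.4 kb in wild-type and 176.8 kb in knockdown peaks (ratio 0.485). From 36 to 44 Mb, the gene-rich middle with CBX6, CBX7 and EP300, cover was 2909 and 2399 kb (0.825). This middle stretch held 33.7% of the wild-type cover but 21.9% of the decrease, and its peaks were more numerous in the knockdown, with 451 against 405. The 22q11.2 side, 17 to 22 Mb, had 1128 and 836.8 kb (0.742), and the end of the arm, 49 to 51 Mb, had 697 and 572 kb (0.821).

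**Figure D2:**
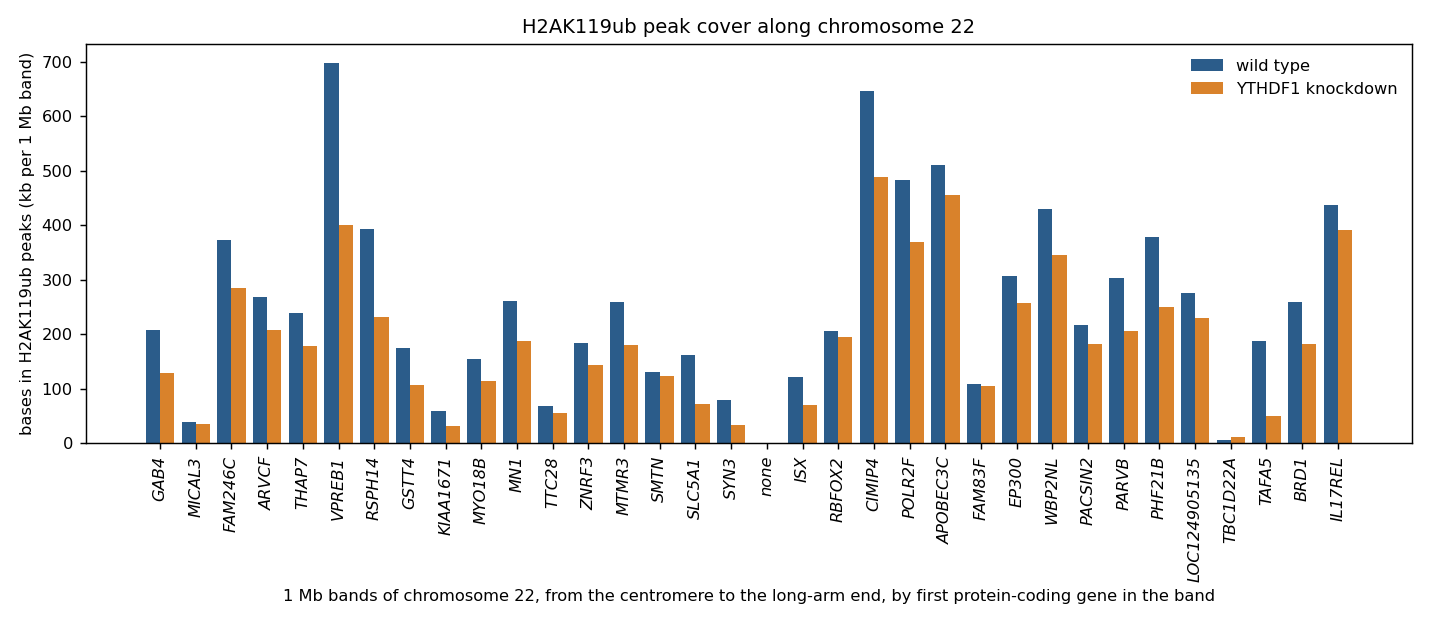
Bases in H2AK119ub peaks per 1 Mb band (kb) along chromosome 22 from 17 Mb to the end, wild type in blue and YTHDF1 knockdown in orange, labelled by the first protein-coding gene in each band. The tallest pair, 698 and 401.2 kb, is the VPREB1 band, and the TBC1D22A band (5.8 and 11.6 kb) is the only one with a taller knockdown bar.

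The pooled ratio of covered length was higher in gene-rich bands of chromosome 22. Bands in which 0 to 4 protein-coding genes begin had a pooled ratio of 0.513 (4 bands), those with 5 to 9 genes 0.653 (6 bands), those with 10 to 14 genes 0.723 (9 bands) and those with 15 or more 0.785 (13 bands). The median band ratios of these classes were 0.469, 0.719, 0.660 and 0.775, so the medians did not rise in step with the gene number. On the other chromosomes the same classes had pooled ratios of 0.860, 0.877, 0.859 and 0.856. Over the 32 bands, the ratio and the number of genes had a Pearson correlation of 0.476 and a Spearman correlation of 0.462, which were 0.244 and 0.265 over the 28 bands with 5 or more genes, so the relation rested largely on the 4 gene-poor bands. The bands share 1 library per group. In bands of similar wild-type cover chromosome 22 was also lower, with 0.632 against 0.915 elsewhere for 20 to 100 kb and 0.742 against 0.834 for 300 kb or more.

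The decrease was smallest next to gene ends. Within 2 kb of an end of a protein-coding gene, peaks covered 1.85 Mb in the wild type and 1.58 Mb in the knockdown (ratio 0.851, against 0.924 on the other chromosomes). Over the rest of the genes the values were 3.56 and 2.43 Mb (0.682 against 0.814), and outside genes 3.22 and 2.302 Mb (0.714 against 0.888). The share of knockdown cover within 2 kb of a gene end was 24.97%, and that of wild-type cover 21.4%. Outside protein-coding genes, chromosome 22 was farthest below the other chromosomes.

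**Figure D3:**
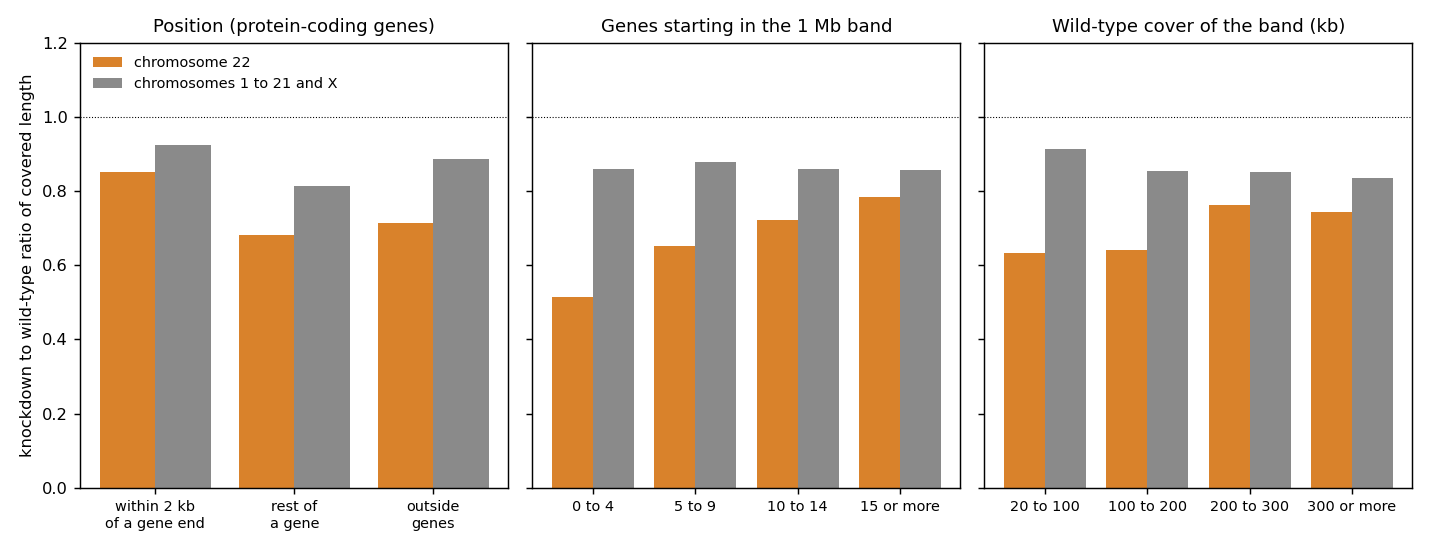
Knockdown to wild-type ratio of covered length on chromosome 22 (orange) and on chromosomes 1 to 21 and X (grey), by position relative to protein-coding genes, by the number of genes that begin in the 1 Mb band and by the wild-type cover of the band. The dotted line marks equal cover, and chromosome 22 is lower in each class, from 0.513 to 0.851.

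The immunoglobulin lambda locus (22026076 to 22922913) holds the variable (IGLV), joining (IGLJ) and constant (IGLC) segments of an antibody light chain, which are rearranged in developing B cells. Wild-type peaks covered 651 kb of its 897 kb (72.6%) and knockdown peaks 377 kb (42.0%). The wild type had 55 peaks there, of which 30 touched no knockdown peak, and the knockdown had 46, of which 1 touched no wild-type peak (28.6% of wild-type and 25.9% of knockdown peaks over all chromosomes, and 34.96% and 18.5% on chromosome 22, touched none of the other list). Of the 73 IGLV segments, 66 were touched by a wild-type peak and 44 by a knockdown peak, 23 by wild-type peaks alone and 1 by a knockdown peak alone (over all genes of any kind 4.39% and 4.07% were). Of the 14 IGLJ and IGLC segments, 8 were touched by wild-type peaks and 0 by knockdown peaks. Many segments share a peak, so they are not separate observations.

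The difference within the locus was uneven. Toward the centromere, 4 of the chromosome's 6 widest wild-type peaks stood over the locus or reached into it, of 128.4, 102.6, 66 and 64 kb, and knockdown peaks covered 78.7%, 90.3%, 90.9% and 95.9% of them. Around PRAME and toward the constant segments, wild-type peaks had few knockdown counterparts. PRAME had 29.6 kb in wild-type peaks within 10 kb of its ends and 4.2 kb in knockdown peaks. Its neighbour ZNF280B, a zinc finger gene, had 22.97 and 8.2 kb. IGLL5, an immunoglobulin lambda-like gene by the constant segments, had 12.2 kb in wild-type peaks and none in knockdown peaks. Without the locus the chromosome's ratio was 0.743.

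**Figure D4:**
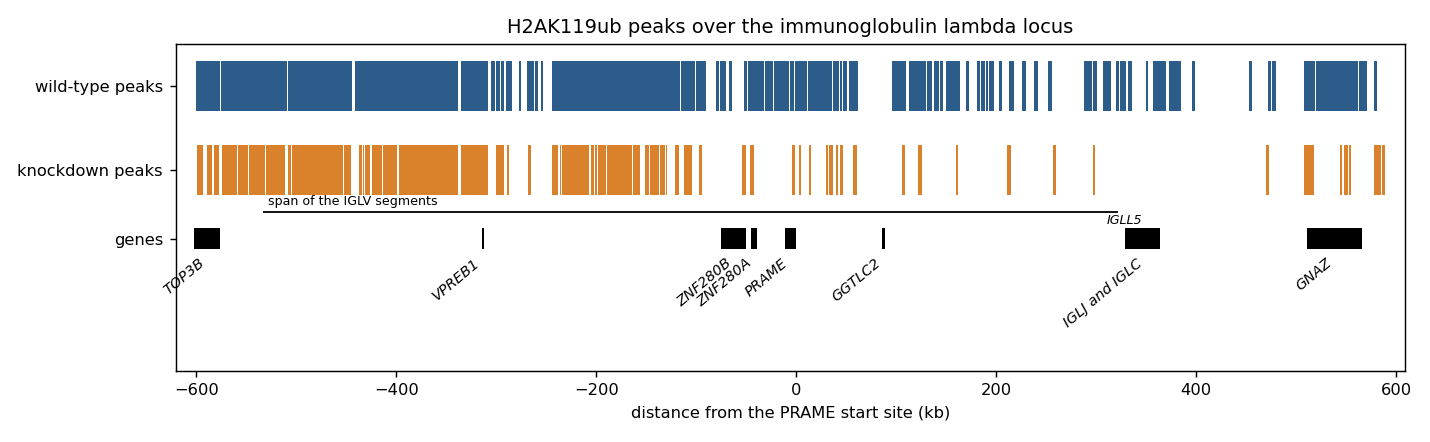
Peaks of the wild type (blue) and the knockdown (orange) across the immunoglobulin lambda locus, by distance from the PRAME start site (kb), with genes in black and a line over the span of the IGLV segments. Wide blocks at the left occur in both lists, while the wild-type peaks around PRAME and on the right have few knockdown counterparts.

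At several other wide domains, knockdown peaks covered most of the bases but were shorter and more numerous. The widest wild-type peak, 128.6 kb over the transcriptional coregulator gene TCF20 and the immune receptor gene NFAM1 (42264001 to 42392600), met 8 knockdown peaks, the widest of 38.6 kb, which covered 89.0% of it. The TBX1 peak of 50.4 kb met 5 knockdown peaks that covered 85.7% of it, and a peak of 53.2 kb over TRIOBP, an actin-binding protein of the inner ear, met 7 that covered 74.4%. Others met a single knockdown peak. A peak of 42.4 kb over the stress kinase genes MAPK11 and MAPK12 and the plexin gene PLXNB2 met 1 knockdown peak of 38.2 kb. The 40.6 kb peak over PDGFB, which encodes a platelet-derived growth factor chain, met 1 of 36.6 kb.

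The widest wild-type peak with no knockdown counterpart measured 23.4 kb and lay over GNAZ and RSPH14 (23079401 to 23102800). GNAZ encodes a G protein alpha subunit of neurons and platelets, and its gene body had 52.1 kb in wild-type and 15.1 kb in knockdown peaks. The next such peaks over a protein-coding gene lay at PRAME (14.6 kb), at SYN3 (14.4 kb), which encodes a synaptic vesicle protein, and at MCM5 (11.8 kb), which encodes a replication helicase subunit. In the knockdown list the widest peak with no wild-type counterpart measured 9 kb and lay over GRAP2 (39966601 to 39975600), which encodes a T cell adaptor. These values were picked from the extremes of each list.

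Several long genes had low ratios over their bodies. TAFA5, a secreted protein of the nervous system, had 75.4 kb in 17 wild-type peaks and 17.4 kb in 5 knockdown peaks. SYN3 had 132 kb in 24 peaks and 37.0 kb in 12. PHF21B, a PHD finger gene, had 70.4 and 15.4 kb. Other long genes differed from these. CACNA1I, a T-type calcium channel, had 58.5 and 63.7 kb, CELSR1, a planar polarity cadherin, 36.4 and 35.6 kb, and SEZ6L, a neuronal membrane protein, 2.14 and 12.5 kb. MYO18B, an unconventional myosin of muscle, had no wild-type cover and 11.4 kb in the knockdown.

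Near genes, most marked genes were marked in both lists. Marked genes are protein-coding genes with a peak no farther than 2 kb from either annotated end. Of the 439 protein-coding genes, the wild-type list marked 384 (87.5%) and the knockdown list 374 (85.2%), with 362 shared. Over all chromosomes each list marked 13759 of 19817 genes (69.4%), with 12811 shared. The 22 genes marked in the wild type alone made 5.01% (4.78% over all chromosomes), and the 12 marked in the knockdown alone 2.73% (4.78%). In the upper 50% of peaks by score, these counts were 27 (6.15%, against 6.64% over all chromosomes) and 21 (4.78%, against 6.39%). As over all chromosomes, most genes marked in the wild type were thus marked in the knockdown too, while the length around them was shorter. Bases in peaks within 10 kb of the gene ends averaged 15.7 kb per gene for wild-type and 12.5 kb for knockdown peaks (-20.3%, against -12.1% elsewhere). The cover was lower by at least 1 kb at 281 genes (64.0%, against 40.6% over all chromosomes) and higher by at least 1 kb at 67 (15.3%, against 20.3%). The median difference was -2.6 kb, and over all chromosomes it was 0 kb. Genes over all chromosomes had less to lose, with a mean of 8.79 kb in wild-type peaks and 5110 of 19817 marked in neither list. On chromosome 22, 43 of 439 were marked in neither. On chromosome 19, with a mean of 15.5 kb, 57.9% of genes were lower by at least 1 kb and 15.2% higher. The median difference there was -1.84 kb. The windows of 10 kb may include peaks that belong to a neighbouring gene.

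After PRAME, the largest decreases lay at TPTEP2-CSNK1E, a readthrough gene that includes casein kinase 1 epsilon, with 28.6 kb in wild-type and 5.2 kb in knockdown peaks, and at SOX10, with 26.96 and 8 kb. SOX10 specifies neural crest, glia and melanocytes. PRR5-ARHGAP8, another readthrough gene, had 29.8 and 11.6 kb, and IL2RB, an interleukin-2 receptor chain, 31.6 and 14.8 kb. GNAZ had 26.7 and 10.4 kb, PPIL2, a cyclophilin of the spliceosome, 26.6 and 10.8 kb, DNAL4, a dynein light chain, 29.9 and 15.3 kb, and PMM1, a phosphomannomutase, 26.6 and 12.3 kb. All of these genes remained marked in both lists. Within 5 kb of the ends, the differences at these 8 genes ran from -14.8 kb (TPTEP2-CSNK1E) to -6.56 kb (DNAL4), and in the upper 50% of peaks by score that at PPIL2 was -4.79 kb.

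The largest increases were smaller than these decreases. GRAP2 had no wild-type cover but 9 kb of knockdown cover near its ends. Its body, however, had 16.4 kb in wild-type and 14.5 kb in knockdown peaks. A listed start site inside the gene lay in a wild-type peak alone. CSF2RB, the shared receptor chain for interleukin-3 and related cytokines, had 7.4 and 15.8 kb. USP18, a protease that removes ISG15, had 1.8 and 8.8 kb, and TTLL8, a tubulin glycylase, 21.1 and 27.9 kb. RRP7A, which acts in ribosomal RNA processing, had 9.80 and 16.8 kb. APOL6 had none and 5.8 kb, C22orf23 3.2 and 9.95 kb, CYTH4, an activator of ARF GTPases, 19.4 and 25.1 kb, and ELFN2, a neuronal leucine-rich repeat protein, 28.9 and 34.3 kb. Most of these increases were smaller or not found in the upper 50% of peaks by score. There the difference was -3.60 kb at RRP7A, 0 kb at USP18 and APOL6, 0.227 kb at CSF2RB, 1.94 kb at CYTH4, 2 kb at C22orf23 and 3.04 kb at ELFN2, whereas it was 5.68 kb at TTLL8 and 9 kb at GRAP2. Within 5 kb of the ends, it was 1.96 kb at CSF2RB, 2.37 kb at USP18 and 2.27 kb at TTLL8. As at GRAP2, cover over the gene body was lower in the knockdown at CYTH4 (16.7 and 13.1 kb) and ELFN2 (60.6 and 33.8 kb). Body cover was higher in the knockdown at the other genes of this paragraph.

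**Figure D5:**
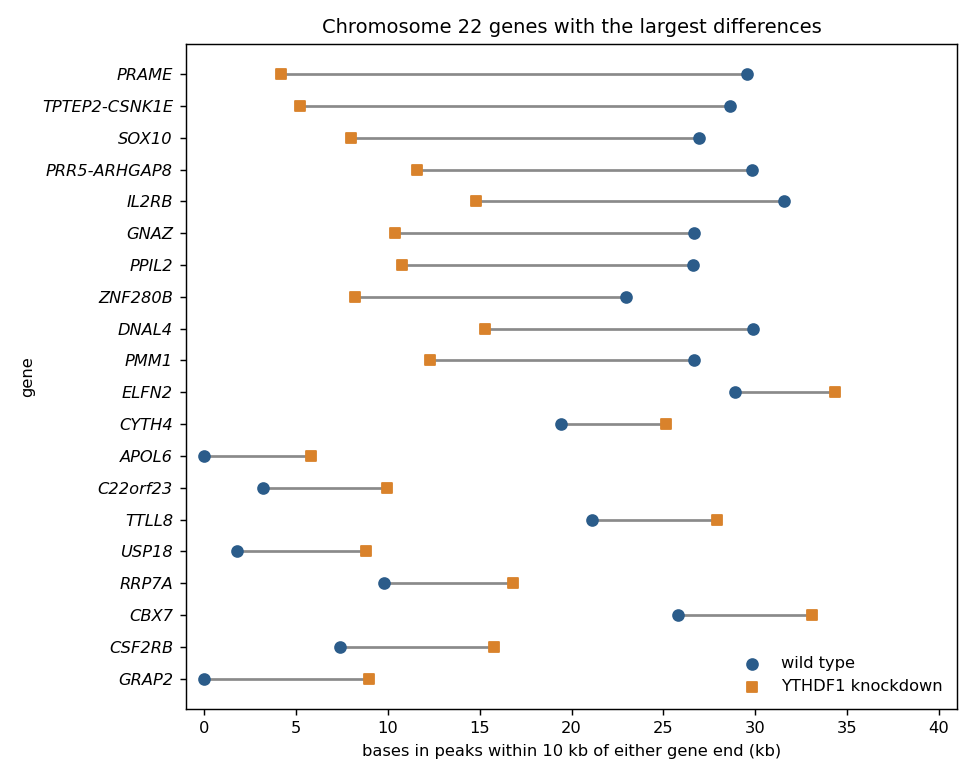
Bases in H2AK119ub peaks within 10 kb of either gene end (kb) for the 10 largest decreases and the 10 largest increases among chromosome 22 genes, wild type as circles and knockdown as squares. PRAME spans 29.6 to 4.2 kb at the top, and the longest span among the increases is that of GRAP2, from 0 to 9 kb.

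The gene groups that follow are 12 lists by known function or position, with 204 genes, of which 32 stand in more than 1 list. All 12 had a lower mean cover and a negative median difference in the knockdown list, in the direction for which the chromosome was chosen. Each list is given by the cover within 10 kb of the gene ends, to be read against the 64.0% of all 439 genes that were lower by at least 1 kb and their median of -2.6 kb. The mean cover of all 12 was also lower within 5 kb of the ends and in the upper 50% of peaks by score, but the size moved by over 1.5 times for 5 of them, as given beside each.

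Among the developmental transcription factor genes, 14 of 15 were marked in each list and mean cover was 20.1 kb in wild-type and 17.3 kb in knockdown peaks. Cover was lower by at least 1 kb at 6 and higher at 1, with a median difference of -0.726 kb. TBX1 had 36.6 and 30.6 kb. MN1, a transcriptional coregulator of craniofacial development, had 38.4 and 37.5 kb (0.8 kb higher in the knockdown within 5 kb of its ends), and ATF4, the stress response factor, 22.04 and 21.33 kb. SOX10 had the largest decrease, and MAFF, a small MAF factor, had 28.6 and 20.4 kb. ISX, an intestinal homeobox gene, was marked in neither list. NFAM1, which stands in this list but is a membrane receptor of B cells, had 39.6 and 36.8 kb.

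The Polycomb and chromatin regulator genes had 12 of 13 members marked in each list, with means of 18.7 and 16.5 kb, 9 lower by at least 1 kb, 3 higher and a median difference of -2.4 kb. Their mean differed by -12.1%, and by -4.40% within 5 kb of the ends. CBX6 had 22.6 kb in wild-type and 20.2 kb in knockdown peaks. CBX7 had 25.8 and 33.1 kb, but within 5 kb of its ends the difference was -0.72 kb, and in the upper 50% of peaks by score it was -0.571 kb. L3MBTL2 had 18.1 and 22.4 kb. PHF21B had the largest decrease, from 27.6 to 12.8 kb, but within 5 kb its difference was -2.6 kb, and that of DGCR8, in the same list, was -2.8 kb. EP300, a histone acetyltransferase, had 7.4 and 9.6 kb, with -1.12 kb within 5 kb. BRD1, a reader in an acetyltransferase complex, had 25.9 and 20.9 kb.

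The 22q11.2 region is deleted in DiGeorge syndrome. Of its 41 listed genes, the wild-type list marked 37 and the knockdown list 36, with means of 16.7 and 13.8 kb, 26 lower by at least 1 kb, 6 higher and a median difference of -2.4 kb. ARVCF, a catenin, had 39.4 and 34.8 kb, and DGCR8, the microRNA processing partner of DROSHA, 20.96 and 16 kb. TANGO2 had 27.1 and 16.2 kb. RTN4R, the Nogo receptor, had 15.9 and 20.1 kb, but 17.1 and 12.3 kb over its body. CCDC188 was marked in the wild type alone, with 9.79 and 3.4 kb, but a difference of 0.4 kb in the upper 50% by score. Of the 40 listed genes of the 22q13.3 end, 39 were marked in each list, with means of 22.07 and 19.03 kb, 27 lower by at least 1 kb, 2 higher and a median difference of -2.6 kb. SHANK3, a scaffold of excitatory synapses, had 28.8 and 25.4 kb, PLXNB2 33.8 and 31.2 kb, and the condensin gene NCAPH2 30.0 and 19.2 kb.

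The ligand, receptor and signalling genes were all marked in the wild type (23 of 23), and 22 were marked in the knockdown, with means of 21.003 and 16.55 kb. Cover was lower by at least 1 kb at 18 and higher at 2, with a median difference of -4.4 kb. WNT7B, a WNT ligand, had 29.6 kb in wild-type and 18.8 kb in knockdown peaks. PDGFB had 38.8 and 34.4 kb, and LIF, the cytokine leukaemia inhibitory factor, 23.36 and 18.96 kb. GRK3, a receptor kinase, had 3.8 kb in wild-type peaks and none in knockdown peaks. The 20 neuronal channel and synapse genes were all marked in both lists, with means of 19.9 and 17.4 kb, 14 lower by at least 1 kb, 3 higher and a median difference of -2.04 kb. Their mean differed by -12.5%, and by -5.82% in the upper 50% by score. KCNJ4, an inward rectifier potassium channel, had 32.2 and 34.3 kb, and TAFA5 18.2 and 9.4 kb near its ends.

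The APOBEC3 and APOL families had the largest relative decrease of the 12 lists within 10 kb, with means of 10.3 and 7.07 kb (-31.6%), 7 of 13 lower by at least 1 kb, 4 higher and a median difference of -3.2 kb. The families, of antiviral deaminases and apolipoproteins L, are tandem clusters whose windows overlap. APOBEC3D had 26.9 and 14.4 kb, APOBEC3G 17.1 and 7.6 kb and APOBEC3H 19.5 and 10.9 kb, whereas APOBEC3B had 18.3 and 17.98 kb. APOL2 had 3.6 kb in the wild type alone. The germline and meiosis genes had means of 15.9 and 11.5 kb (-27.9%), with 8 of 12 lower by at least 1 kb, 2 higher and a median difference of -2.84 kb. Within 5 kb of the ends the order turned, with -31.5% for the germline and meiosis genes and -30.1% for the APOBEC3 and APOL families. In the upper 50% of peaks by score it did not, with -25.9% and -47.4%. PRAME had the largest decrease of the germline and meiosis genes, -25.4 kb, against a mean difference of -4.45 kb over the 12. Much of that list's mean decrease thus came from PRAME. PIWIL3, a germline PIWI protein, had 2.88 kb in the wild type alone, and DMC1, the meiotic recombinase, had 12.6 and 13.8 kb.

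The blood and immune genes had 11 of 13 marked by wild-type peaks and 10 by knockdown peaks, with means of 17.4 and 14.5 kb, 10 lower by at least 1 kb, 3 higher and a median difference of -1.81 kb. IGLL5 and IGLL1, immunoglobulin lambda-like genes, were marked by wild-type peaks alone. Within 10 kb, however, IGLL1 had 14.7 kb in wild-type and 7.37 kb in knockdown peaks. GRAP2 was marked by a knockdown peak alone, although a start site inside it lay in a wild-type peak alone. CARD10, a scaffold of NF-kappa-B signalling, had 35.2 and 28.2 kb. The 37 housekeeping genes had 31 marked by wild-type peaks and 32 by knockdown peaks, with means of 11.7 and 9.92 kb, 21 lower by at least 1 kb, 8 higher and a median difference of -1.4 kb. Their mean differed by -15.5%, and by -9.06% in the upper 50% by score. Within 2 kb of an end, AP1B1 and the respiratory chain gene UQCR10 had a wild-type peak alone, and PISD, TOMM22 and RBX1, a subunit of cullin ubiquitin ligases, a knockdown peak alone. Within 10 kb, however, AP1B1 had 11.1 kb in wild-type and 10.9 kb in knockdown peaks, and PISD 10.8 and 6.6 kb. UQCR10, TOMM22 and RBX1 had a difference of 0 kb once only the upper 50% by score was kept. The tumour suppressor genes were all marked in both lists (5 of 5), with means of 18.7 and 14.6 kb, 3 lower by at least 1 kb, 1 higher and a median difference of -3.2 kb. Their mean differed by -22.2%, by -8.71% within 5 kb and by -9.18% in the upper 50% by score. NF2, which encodes merlin, had 21.8 and 12.6 kb, LZTR1, a cullin adaptor, 28.5 and 18.3 kb, and SMARCB1, a subunit of SWI/SNF remodelling complexes, 24.2 and 23.8 kb, but within 5 kb SMARCB1 was higher in the knockdown, with 13.4 and 16.04 kb. The 4 crystallin genes, lens proteins, had means of 11.6 and 10.3 kb, with 2 lower by at least 1 kb, 1 higher (CRYBA4, which had -4.11 kb in the upper 50% by score) and a median difference of -1.19 kb. Their mean differed by -11.02%, by -19.96% within 5 kb and by -21.6% in the upper 50% by score.

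The start sites were set against the CG content around them. RefSeq promoter entries gave 419 start sites for 308 of the 439 protein-coding genes. A total of 297 lay in peaks of both lists, 27 in the wild type alone (6.55% of sites over all chromosomes were), 17 in the knockdown alone (6.77%) and 78 in neither. Windows of 300 bases around sites in both lists had a median of 31 CG, and those in neither list 6. Some sites belong to the same gene. The sites in a wild-type peak alone had a median of 7 CG (quartiles 3.5 and 27.5), and those in a knockdown peak alone 23 (quartiles 11 and 31). On the other chromosomes these medians were 18 and 21. A ratio of observed to expected CG of at least 0.6, a usual mark of CpG islands, held for 82.8% of sites in both lists, 33.3% of those in the wild type alone, 76.5% of those in the knockdown alone and 24.4% of those in neither. On the other chromosomes these shares were 80.9%, 60.3%, 74.7% and 27.1%. The count of CG describes these letters and was not compared with DNA methylation.

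Genes of other kinds had lower cover over their bodies in the knockdown as well. Of 337 long non-coding RNA genes, 212 touched a wild-type peak and 183 a knockdown peak, with 1160 and 777 kb in peaks (ratio 0.670). Of 376 pseudogenes, 101 and 81 were touched, with 247 and 171 kb (0.692). The 439 protein-coding gene bodies had 4974 and 3516 kb (0.707). Long non-coding RNA genes, pseudogenes and protein-coding genes had similar ratios, all below that of the chromosome as a whole. Neither touched shares nor ratios by gene kind were computed for the other chromosomes. There, protein-coding genes beyond 2 kb of their ends also had a ratio below the total, with 0.814 against 0.869.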

How the data were processed

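H2AK119ub peaks of 1 wild-type and 1 YTHDF1 knockdown library of H1 cells were compared. The authors deposited 1 peak list per library, with a chromosome, start, end, name and score per peak. The score is the authors' own value, without a unit in the sources used here, and it served only to rank peaks within their own list. Per the submitters' processing notes, the build was hg38 and the tools were MACS2 2.1.0 and SICER 1.1, Bowtie2 2.2.5, Trimmomatic 0.35, Picard and SAMtools 1.3.1. The peak caller and any use of the inputs are not given in the sources used here. Peak edges and the number of peaks depend on the caller's threshold and on depth, neither of which is known here.

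Covered length, overlap (at least 1 bp) and 1 Mb bands were computed on 200 bp bins, with Python 3.11.15, numpy 2.4.6 and pandas 2.3.3. The interval code was tested on simulated data. Ratios were given for bands with at least 20 kb in the wild type. The background values cover chromosomes 1 to 22 and X, which held 32791 of the wild-type and 34390 of the knockdown peaks. Genes came from RefSeq tables of GRCh38.p14. A total of 19817 protein-coding genes were used, 439 of them on chromosome 22, and 153 placed on scaffolds were not. All 204 listed genes were found. With 1 library per group no test was run.

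The chromosome, the gene lists and the rules were chosen with earlier results of these data known. The rule for named genes took the 10 largest decreases and 10 largest increases without overlapping windows, and from each list the 2 longest in the wild type, the largest decrease and increase and every member marked in 1 list alone. It also took the genes of the widest peaks and of the most changed bands, with CBX6, CBX7, L3MBTL2, TBX1 and WNT7B. ATF4, MAFF, ISX, DGCR8, SHANK3, LIF, APOBEC3B, APOBEC3G, DMC1, NF2, SEZ6L, CELSR1, CACNA1I, MYO18B, BCR and the microRNAs were added after values were seen. Alternatives for the score, width, window, band size and overlap were run, and their effect is given at the end. Some genes that the rule or the lists held are not reported here.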

Additional observations from a re-analysis of the deposited data

How the results depend on the processing

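The lower covered length on chromosome 22 kept its direction in each alternative run. Its ratio of 0.730 became 0.715 in the upper 50% of peaks by score, 0.718 without peaks under 2 kb, 0.733 with peaks under 2 kb apart merged and 0.724 without the first 18 Mb and the last band. It was 0.813 when the wild-type list was cut by score to the covered length of the knockdown list, where the other chromosomes stood at 1.01 and chromosome X was lower, at 0.789. Leaving out the lambda locus gave 0.743 and leaving out the 3 bands with the largest decrease 0.752, both chosen after the data were seen. The ratio of peak numbers, 0.932, became 0.937 in the upper 50% by score, 0.882 without peaks under 2 kb, 0.998 after merging and 0.936 without the lambda locus, so fewer peaks were not found once near peaks were joined (905 and 903). Shared peaks made 38.4% of the wild-type and 41.2% of the knockdown list under a reciprocal overlap of at least 50%, against 65.0% and 81.5% with at least 1 bp, and 85.1% of the knockdown list in the upper 50% by score. The ratio of median widths, 0.826, became 0.844 in the upper 50% and 0.875 without peaks under 2 kb, both added after the data were seen. Bands lower in the knockdown numbered 56 of 60 at 0.5 Mb, 18 of 18 at 2 Mb and 31 of 32 in the upper 50%. Genes marked in the knockdown alone numbered 21 in the upper 50%, against 12. Of 62 named genes, 4 changed direction in the upper 50% (CBX7 -0.571 kb, RRP7A -3.60 kb, CCDC188 0.4 kb and CRYBA4 -4.11 kb) and 10 had no difference left there. Within 5 kb of the ends 4 changed direction (CBX7 -0.72 kb, EP300 -1.12 kb, MN1 0.8 kb and SMARCB1 2.61 kb), the last pair from differences under 1 kb. With the direction kept, 20 differences in the upper 50% (8 of them larger) and 35 within 5 kb (3 larger) moved by over 1.5 times. The cause of these changes was not tested. No paired analysis was possible because each group had 1 H2AK119ub library. No replicate could be left out for the same reason.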
